A study of Homo sapiens with 8 samples.

Results

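Cytochrome c oxidase, complex IV of the respiratory chain, was examined through 40 nuclear genes: its subunits and the factors that assemble it. They were chosen by name from the known composition of the complex and its assembly pathway, and no measured value is part of that rule. Earlier results of these data were known when the choice was made. All 40 matched a gene by their own symbol among the 38010 Ensembl gene IDs of the deposited count table. Their RNA was compared between parental Ea.hy926 cells and an Ea.hy926 line deficient in oxidative phosphorylation (Rho0).

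Complex IV passes electrons from cytochrome c to oxygen in the inner mitochondrial membrane. Its catalytic core, MT-CO1, MT-CO2 and MT-CO3, is encoded by mitochondrial DNA and carries the heme A and copper centres, while the other subunits come from nuclear genes and surround that core. Assembly proceeds by modules built around each core subunit, with dedicated factors for heme A, for copper and for the insertion of each chain.

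Ea.hy926 is an established human hybrid line whose fusion partners were endothelial cells of the umbilical vein and A549, a lung carcinoma line. The parental group was the unmodified line and the Rho0 group its respiration-deficient counterpart, Rho0 being the usual name for cells that lack mitochondrial DNA. Both were grown to confluence, with no drug treatment named, and each gave 4 biological replicates for polyadenylated RNA sequencing. The question, from the study's title, concerns what respiration maintains in quiescent cells. The labels name 1 line of each kind, so a difference between the lines and an effect of lost respiration cannot be told apart, and no source used here says how the Rho0 line was made. Each p-value rests on the spread between cultures of these lines. In bulk RNA, fewer cells with a transcript and less transcript per cell cannot be told apart.

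Libraries held 11721708 to 37203507 estimated counts. Genes of mitochondrial DNA took 16.0% to 21.4% of the counts in the parental libraries and 0.00296% to 0.149% in the Rho0 libraries, with Rho0 replicate 2 the highest of the latter. All 10 endothelial markers examined were detected, with a summed level of 6682 to 7569 CPM (read counts scaled to library size with TMM) in the parental libraries and 6424 to 7266 CPM in Rho0. Single markers moved in both directions: the largest changes were a rise of KDR, a VEGF receptor, from 13.8 ± 0.794 CPM to 131 ± 13.5 CPM (SD, n = 4) and a fall of MCAM, an adhesion molecule, from 881 ± 46.8 CPM to 137 ± 6.23 CPM. The 6 epithelial markers of the fusion partner summed to 2607 to 2879.8 CPM and 1295 to 2079 CPM, carried by KRT8, KRT18 and KRT7. KRT19, EPCAM and CDH1 each averaged below 1 CPM in both lines. EPCAM was at 0.428 ± 0.0808 CPM in parental and 0.952 ± 0.15 CPM in Rho0 cells (SD, n = 4 each). Of the markers tested, 4 endothelial genes were higher (40.0%, against 29.0% of all genes tested) and 4 lower (40.0%, against 25.4%) in Rho0. Among the epithelial markers 1, EPCAM, was higher (20.0%) and 2, KRT8 and KRT18, were lower (40.0%). The part of these markers in the results below was not tested.

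Of the 40 genes, 38 had enough counts to be tested. In Rho0 cells 8 of them were higher (21.1%), against 29.0% of all 15184 genes tested, and 9 were lower (23.7%), against 25.4%, at an adjusted p of 0.05 in edgeR's quasi-likelihood test with Benjamini-Hochberg adjustment over all genes. In both directions together 44.7% were called, against 54.4% of all genes. The 4 Rho0 libraries lay wholly above or below the 4 parental ones for 15 members (39.5%), against 50.9% of all genes. One member, COA5, changed by at least 1 on the log2 scale (2.63%), against 14.7% of all genes. The median log2 fold change, Rho0 over parental, was -0.05 for the members and 0.05 for all genes, and its median size without sign was 0.252 against 0.378.

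These directions are relative to TMM scaling. With library size alone, the median of all genes moved from 0.05 to 0.44 and that of the members from -0.05 to 0.34, and 22 members (57.9%) were then called higher, against 56.5% of all genes, and 1, COX8A, lower (2.63%), against 10.1%. Relative to all genes the members' median was -0.10 under both scalings. Library size includes the counts of mitochondrial DNA genes, 16.0% to 21.4% in parental and 0.00296% to 0.149% in Rho0 libraries. Scaling by it alone therefore places nuclear genes higher in Rho0 by arithmetic. How much of the shift this makes up was not tested. With mitochondrially encoded genes left out and TMM kept, 7 members were higher (18.4%, against 28.1%) and 10 lower (26.3%, against 26%). Of the 17 calls, those of COA5, COX11, COX5B and COX8A held in all 20 alternative analyses.

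**Figure D1:**
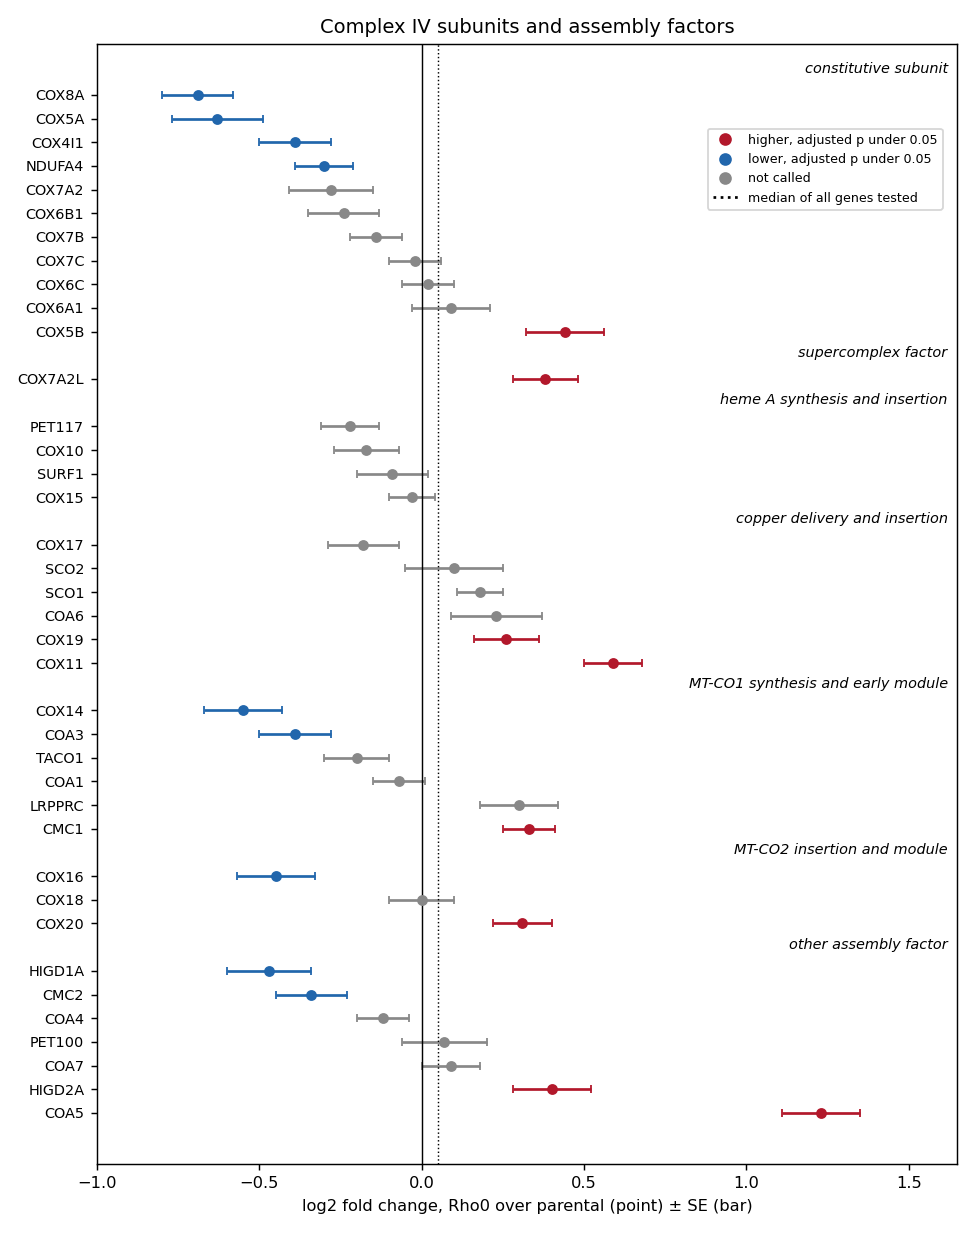
Log2 fold change of the 38 tested members (x axis, Rho0 over parental, TMM scaling), grouped by role on the y axis; points are estimates from 4 libraries per line, bars are ± SE, and the dotted line is the median of all genes tested, 0.05. COA5 lies farthest right at 1.23 and COX8A farthest left at -0.69; with library size alone every estimate lies further right and only COX8A is called lower.

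The promoters of 4 members are shown because these genes carry the largest changes among the assembly factors and in each direction among the subunits: COA5 and COX5B rose, COX8A and COX5A fell. Each window runs from 250 bases before to 30 bases after the annotated start, 5′ to 3′ on the gene's own strand, and comes from RefSeq on GRCh38.p14. The positions are chr2:98608483-98608762 (minus strand) for COA5, chr2:97645812-97646091 (plus strand) for COX5B, chr11:63974370-63974649 (plus strand) for COX8A and chr15:74938044-74938323 (minus strand) for COX5A. Capitals mark exact matches, on either strand, to the letters CCGGAAG (ETS family, to which the respiratory gene activator GABP belongs), GCATGCGC (NRF1) or AAGATGGC (YY1).
COA5: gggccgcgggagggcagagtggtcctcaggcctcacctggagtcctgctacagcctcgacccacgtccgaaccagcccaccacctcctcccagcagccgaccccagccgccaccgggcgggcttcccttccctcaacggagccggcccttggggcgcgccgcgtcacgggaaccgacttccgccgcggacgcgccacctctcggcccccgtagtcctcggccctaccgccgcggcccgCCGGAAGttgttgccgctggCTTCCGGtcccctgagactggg
COX5B: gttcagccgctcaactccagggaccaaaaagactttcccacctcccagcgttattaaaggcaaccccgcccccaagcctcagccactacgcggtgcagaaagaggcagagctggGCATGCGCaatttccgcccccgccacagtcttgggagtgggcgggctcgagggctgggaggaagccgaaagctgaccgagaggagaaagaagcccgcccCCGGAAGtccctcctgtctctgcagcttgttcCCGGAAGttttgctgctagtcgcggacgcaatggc
COX8A: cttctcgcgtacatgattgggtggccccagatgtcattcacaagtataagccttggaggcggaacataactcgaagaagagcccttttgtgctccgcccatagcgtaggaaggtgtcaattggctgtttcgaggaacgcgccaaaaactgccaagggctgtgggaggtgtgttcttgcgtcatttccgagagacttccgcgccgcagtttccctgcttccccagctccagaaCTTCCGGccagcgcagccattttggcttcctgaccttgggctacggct
COX5A: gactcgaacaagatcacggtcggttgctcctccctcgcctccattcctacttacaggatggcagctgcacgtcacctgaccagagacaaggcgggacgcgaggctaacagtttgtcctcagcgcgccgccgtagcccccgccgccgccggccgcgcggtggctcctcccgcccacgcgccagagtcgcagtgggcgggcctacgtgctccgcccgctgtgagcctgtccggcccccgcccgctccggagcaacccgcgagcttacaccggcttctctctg
COA5 holds the ETS letters at -12 and, on the other strand, at 8, counted from the start at 0 to the first printed base of the match. COX5B holds them at -37 and -5 and the NRF1 letters at -136. COX8A holds the ETS letters at -18 on the other strand, and the COX5A window holds none of these letters.

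Among the 34 members with a promoter in the table, 16 (47.1%) held the ETS letters, against 21.1% of 10727 tested genes and 11.8% of all 27305 genes with a promoter of this length. The reverse complement searched was CTTCCGG, and a gene with several windows counted once. NRF1 letters (reverse complement GCGCATGC, which shares GCATGC with the forward letters) were in 5 members (14.7%), against 6.11% and 3.61%: COX5B, COX6A1, COX17, COX18 and CMC2. YY1 letters (reverse complement GCCATCTT, whose end can overlap the start of CTTCCGG) were in 0 of 34 members, against 5.24% and 2.99%. Of the 16 with ETS letters, 4 were higher, 2 lower and 10 not called in Rho0, while the 34 promoters as a whole divide into 7, 8 and 19. Of all genes tested, 29.0% were higher and 25.4% lower. How all genes with these letters divide was not examined. A match is a description of letters only.

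The 3 subunits made in mitochondria were nearly gone from the Rho0 libraries. MT-CO1, which holds the heme A groups, stood at 52001, 52719, 65535 and 47072 CPM in parental replicates 1 to 4 and at 7.97, 346, 16.5 and 5.57 CPM in Rho0 replicates 1 to 4. Rho0 replicate 2 stands far above the other Rho0 libraries and still far below every parental one. The log2 fold changes were -9.18 ± 1.53 (SE) for MT-CO1, -9.27 ± 1.44 for MT-CO2 and -9.20 ± 1.40 for MT-CO3 (adjusted p = 0.00049, 0.00031 and 0.00027, edgeR). Without Rho0 replicate 2 they were -12.45, -12.32 and -12.11.

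The nuclear subunits that are built into complex IV in most tissues changed far less than the core, and in both directions. Of 11 such subunits, 1 was higher (9.09%, against 29.0% of all genes) and 4 lower (36.4%, against 25.4%), and 6 were not called. The median log2 fold change was -0.24. With library size alone the median was 0.15, with 4 higher (36.4%, against 56.5% of all genes) and 1 lower (9.09%, against 10.1%). Their summed level was 729, 775, 805 and 772 CPM in parental replicates 1 to 4 and 784, 661, 639.9 and 539.5 CPM in Rho0 replicates 1 to 4, so Rho0 replicate 1 lay within the parental range and the other 3 Rho0 libraries below it.

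COX5A and COX4I1 join the core first, with MT-CO1, and both were lower. COX5A was at 109, 116, 131 and 106 CPM in the parental libraries and at 90.5, 79.5, 74.1 and 54.0 CPM in Rho0. The groups do not overlap, and Rho0 replicate 4 is the lowest of all. The mean went from 115 ± 11.0 to 74.5 ± 15.3 CPM (SD, n = 4 each), a log2 fold change of -0.63 ± 0.14 (SE; adjusted p = 0.0031, edgeR); with library size alone it was -0.24 and not called. COX4I1, the ubiquitous form of the subunit that binds ATP and sets the enzyme's regulation, read 166, 184, 185 and 182 CPM in parental cells and 170.2, 138, 128 and 112 CPM in Rho0. Rho0 replicate 1 lies inside the parental range, and the other Rho0 libraries lie below it. The fall of 0.39 ± 0.11 (SE) on the log2 scale passed the test (adjusted p = 0.015, edgeR); it missed it without Rho0 replicate 3 (-0.37, adjusted p = 0.052) and was 0 with library size alone.

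COX5B, the zinc-binding subunit on the matrix side, went the other way. It was at 49.3, 53.2, 50.1 and 53.9 CPM in the parental libraries and at 87.2, 71.4, 66.6 and 55.1 CPM in Rho0. All Rho0 libraries lie above all parental ones, although Rho0 replicate 4 does so by a narrow margin. Its log2 fold change was 0.44 ± 0.12 (SE; adjusted p = 0.011, edgeR), and 0.29 without Rho0 replicate 1 (adjusted p = 0.026). COX5B thus rose while COX5A, named alike but an unrelated protein, fell in the same cultures.

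COX8A, a small membrane-spanning subunit, showed the largest fall of any subunit. It stood at 64.0, 70.3, 70.2 and 71.2 CPM in parental cells and at 52.0, 43.6, 37.8 and 37.3 CPM in Rho0, with no overlap. The log2 fold change was -0.69 ± 0.11 (SE; adjusted p = 0.00029, edgeR), and it was still called lower with library size alone (-0.30, adjusted p = 0.021).

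NDUFA4 was first assigned to complex I and is now counted as a complex IV subunit. Its parental values were 25.8, 29.2, 25.1 and 30.7 CPM and its Rho0 values 25.3, 20.8, 22.2 and 21.3 CPM. Only Rho0 replicate 1 reaches into the parental range. The log2 fold change was -0.30 ± 0.09 (SE; adjusted p = 0.019, edgeR), a call that was lost without parental replicate 2 (adjusted p = 0.058), parental replicate 4 (0.062) or Rho0 replicate 2 (0.051), and the sign turned with library size alone (0.08).

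The remaining 6 constitutive subunits were not called. COX7A2, the widespread form of its subunit, was at 30.4, 31.7, 35.3 and 33.8 CPM in parental and 34.1, 28.3, 23.5 and 22 CPM in Rho0 libraries, with Rho0 replicate 1 among the parental values and the others below them (log2 fold change -0.28 ± 0.13 SE, adjusted p = 0.093, edgeR). Without Rho0 replicate 1 COX7A2 was called lower (-0.45, adjusted p = 0.0033), as was COX6B1, a subunit on the intermembrane-space side (-0.36, adjusted p = 0.013; -0.24 and adjusted p = 0.093 with all libraries). COX7B had a log2 fold change of -0.14 and was called lower without Rho0 replicate 4 (-0.19, adjusted p = 0.042), without Rho0 replicates 1 and 4 (-0.24, adjusted p = 0.02) and after correction of each library for length and GC content (-0.31, adjusted p = 0.0045). COX7C was at -0.02, COX6C at 0.02 and COX6A1 at 0.09. The signs of the last 3 depend on single libraries or on the scaling.

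The pattern across Rho0 cultures was shared by most of these subunits. Among the 4 Rho0 libraries, 10 of the 11 constitutive subunits were highest in replicate 1, against 33.4% of all genes tested, and 8 of 11 were lowest in replicate 4, against 36.3% of all genes. The median SD of log2(CPM + 0.5) among subunits was 0.086 over the parental libraries and 0.242 over Rho0, against 0.109 and 0.182 for all genes. Relative to the parental mean, the median subunit stood on that log2 scale at 0.00 in the first Rho0 replicate, at -0.20 and -0.24 in replicates 2 and 3, and at -0.37 in replicate 4. With Rho0 replicates 1 and 4 both left out, a choice made after seeing the data, 7 of 11 subunits were lower and 1 higher, against 28.0% and 28.4% of all genes.

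**Figure D2:**
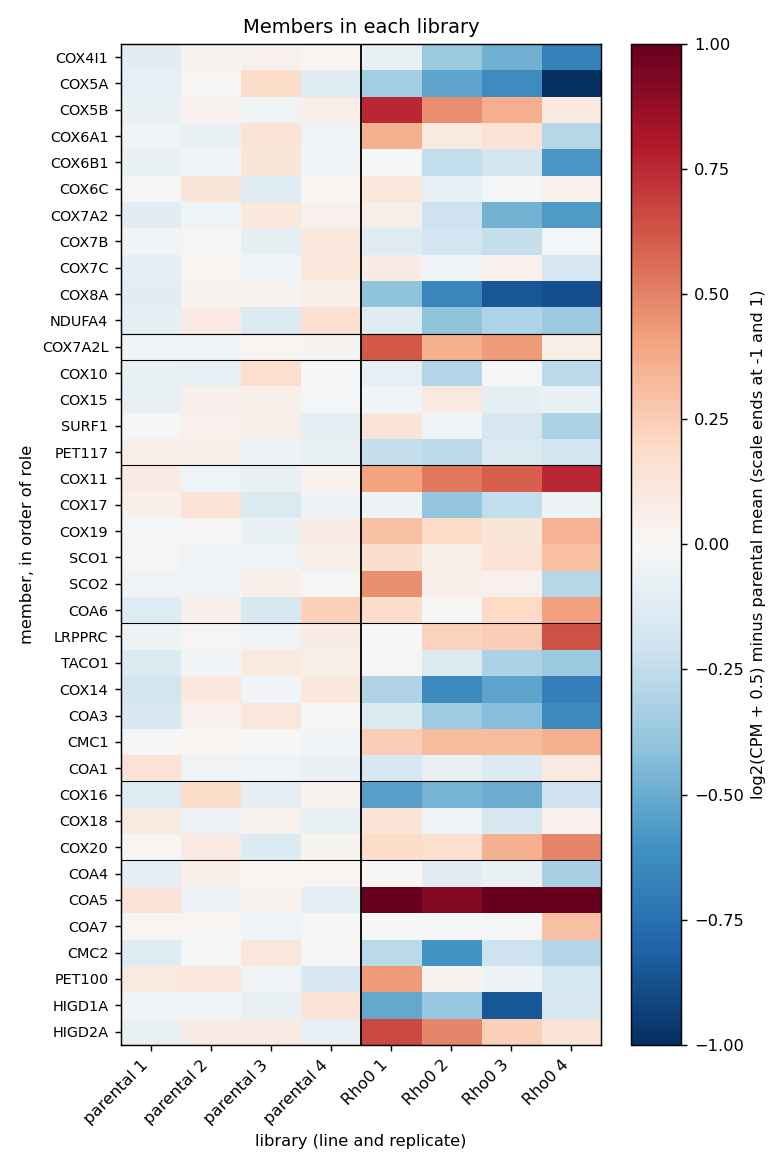
Each tested member (y axis, in order of role) in each of the 8 libraries (x axis), coloured by log2(CPM + 0.5) minus the parental mean of that member, with the colour scale ending at -1 and 1. The subunits at the top are palest or reddest in Rho0 replicate 1 and mostly bluest in Rho0 replicate 4, while COX11 and COA5 are red in all 4 Rho0 libraries. COX5B and COX7A2L are near white in Rho0 replicate 4, at 55.1 and 82.2 CPM against parental means of 51.6 and 79.0 CPM, and redder in the other Rho0 libraries.

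Tissue-specific subunit forms stayed at the limit of detection. COX4I2, the lung-enriched and oxygen-responsive alternative to COX4I1, had 0 counts in all 8 libraries, where 3 counts would be worth 0.138 CPM as a mean over the parental libraries and 0.127 CPM over Rho0. COX7A1, the heart and muscle alternative to COX7A2, was at 0.229, 0.358, 0.103 and 0.186 CPM in parental and 0.112, 0.301, 0.214 and 0.338 CPM in Rho0 libraries. Those values overlap fully and rest on 20 and 28 counts in all, so neither gene was tested. COX7A1 made up 0.676% ± 0.348 (SD, n = 4) of COX7A1 plus COX7A2 counts in parental and 0.950% ± 0.489 (SD, n = 4) in Rho0 cells. An exchange of either isoform pair was not detectable at this depth. Among 6 genes tied to COX4I2 or to hypoxic subunit exchange, 0 were higher (against 29.0% of all genes) and 2 lower (33.3%, against 25.4%) by edgeR. The DESeq2 Wald test and limma-voom gave the same counts. After the length and GC correction 1 was higher (16.7%, against 29.6% of all genes) and 3 lower (50%, against 31.2%). EPAS1 was then at 0.26 (adjusted p = 0.0065, edgeR) and HIF1A at -0.36 (adjusted p = 0.00091, edgeR). With Rho0 replicates 1 and 4 left out 1 was higher (16.7%, against 28.4%) and 4 lower (66.7%, against 28.0%). In the reported edgeR fit 2 had an unadjusted p under 0.05. CHCHD2, a mitochondrial protein also reported to activate COX4I2, fell by 0.83 ± 0.12 (SE; adjusted p = 0.00014) and CXXC5 by 0.31 ± 0.10 (SE; adjusted p = 0.018), the latter turning to 0.08 with library size alone.

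Levels were compared between genes per kilobase of the median annotated transcript. In parental cells COX4I1 was the most abundant member at 301 ± 15.3 CPM per kb (SD, n = 4), followed by COX6B1 at 219 ± 13.4, COX5A at 201 ± 19.1 and COX6A1 at 189 ± 11.6. In that order only COX4I1 is separated from its neighbour by more than the spread. COX8A (136 ± 6.5) and COX7A2L (92.6 ± 1.77) came next. In Rho0 cells COX4I1 was still first at 230.4 ± 41.3 CPM per kb (SD, n = 4), followed by COX6A1 at 201 ± 35.5, COX6B1 at 186 ± 30.2 and COX5A at 129.6 ± 26.6, and the ranges of mean ± SD of the first 3 overlap. COX7A2L (120.5 ± 18.9) and COX5B (106 ± 20.1) stood above COX8A (84.2 ± 13.5) in Rho0 means, whereas COX8A stood above both in parental means. In Rho0 the ranges of mean ± SD of COX5B and COX8A overlap. Those of COX7A2L and COX8A narrowly miss each other, which says nothing of single libraries. Assembly factors ranged from COX19 at 5.07 ± 0.218 to LRPPRC at 73.3 ± 2.86 CPM per kb in parental cells. The median transcripts used were 1067 bases for COX19 and 1209 bases for LRPPRC. A median over annotated transcripts can differ from the transcript expressed, and these rankings depend on it.

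COX7A2L, the factor that links complex III and complex IV into supercomplexes, rose. It was at 77.7, 77.7, 80.1 and 80.5 CPM in the parental libraries and at 121, 101, 106 and 82.2 CPM in Rho0. The parental values are tight, and even the lowest Rho0 library, replicate 4, lies above them. The log2 fold change was 0.38 ± 0.10 (SE; adjusted p = 0.011, edgeR), and it was not called when each library was corrected for the length and GC content of transcripts (0.30, adjusted p = 0.08).

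Among the 26 assembly factors, 6 were higher (23.1%, against 29.0% of all genes) and 5 lower (19.2%, against 25.4%). The median log2 fold change was -0.01. With library size alone 17 were higher (65.4%, against 56.5% of all genes) and 0 lower (against 10.1%). Heme A is made by COX10 and COX15, and SURF1 and PET117 act around its synthesis or insertion. In edgeR 0 of these 4 were called, against 54.4% of all genes, with 1 at an unadjusted p under 0.05. The DESeq2 Wald test and limma-voom called 0 and limma-trend called 1, PET117. PET117 was called lower in 4 of 20 alternatives, also with DESeq2 size factors (-0.26, adjusted p = 0.034), without mitochondrially encoded genes (-0.24, adjusted p = 0.045) and after the length and GC correction (-0.31, adjusted p = 0.0065). The log2 fold changes of the 4 genes ran from -0.22 (PET117) through -0.17 (COX10) and -0.09 (SURF1) to -0.03 (COX15), and all 4 turned positive with library size alone.

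Copper reaches the core through COX17, which hands it to COX11 for MT-CO1 and to SCO1 and SCO2, with COA6, for MT-CO2, while COX19 works with COX11. Of these 6, 2 were higher (33.3%, against 29.0% of all genes) and 0 lower (against 25.4%) by edgeR. The DESeq2 Wald test gave 1 and 0 and limma-voom 2 and 0. In edgeR 3 had an unadjusted p under 0.05, and the median log2 fold change was 0.20. COX11 stood at 22, 20.1, 19.7 and 21.3 CPM in parental and at 27.6, 30.1, 31.6 and 35.4 CPM in Rho0 libraries. Every Rho0 library is above every parental one. COX11 was 1.5-fold higher in Rho0 (log2 fold change 0.59 ± 0.09 SE, adjusted p = 0.00028, edgeR). Its exons share 909 bases with TOM1L1 on the opposite strand, and no source used here says whether counting used strand.

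COX19 changed by 0.26 ± 0.10 (SE) on the log2 scale (adjusted p = 0.048, edgeR), the least secure call of all: it was made in 6 of 20 alternatives and lost on leaving out any single library, with adjusted p from 0.056 to 0.11. It shares 1186 exon bases with ADAP1 on the same strand, which went from 0.568 to 0.247 CPM on average. SCO2, in which mutations cause a fatal infantile disease of heart and brain, read 11.2, 11.2, 11.9 and 11.6 CPM in parental and 16.0, 11.9, 11.8 and 9.31 CPM in Rho0 cells. Rho0 replicate 1 is above and replicate 4 below all parental values, and the difference was not called (0.10 ± 0.15 SE, adjusted p = 0.61, edgeR). The others were COA6 at 0.23, SCO1 at 0.18 and COX17 at -0.18, none called.

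The first assembly module forms around newly made MT-CO1. LRPPRC stabilises mitochondrial mRNAs and TACO1 activates MT-CO1 translation, and COX14, COA3 and CMC1 hold the new chain. Of 6 genes here, 1 was higher (16.7%, against 29.0% of all genes) and 2 lower (33.3%, against 25.4%). COX14 was at 11.2, 13.8, 12.5 and 13.8 CPM in parental and at 10.3, 8.06, 8.71 and 7.75 CPM in Rho0 libraries, without overlap (log2 fold change -0.55 ± 0.12 SE, adjusted p = 0.0024, edgeR; -0.17 and not called with library size alone). COA3, its partner, was at 19.6, 22.5, 23.7 and 21.9 CPM in parental and at 19.8, 17, 16.2 and 13.9 CPM in Rho0. Rho0 replicate 1 just exceeds the lowest parental library, and the other Rho0 values lie below (log2 fold change -0.39 ± 0.11 SE, adjusted p = 0.014; 0 with library size alone). COA3 shares 816 exon bases with WNK4 on the opposite strand.

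CMC1, which binds the same early MT-CO1 intermediate as COX14 and COA3, moved opposite to them. Its level was 8.33 ± 0.138 CPM in parental and 10.5 ± 0.349 CPM in Rho0 cells (SD, n = 4 each), a log2 fold change of 0.33 ± 0.08 (SE; adjusted p = 0.0056, edgeR). It shares 3520 exon bases with AZI2 on the opposite strand, which was higher by 1.08 on the log2 scale, and under the length and GC correction CMC1 was at 0.04 (adjusted p = 0.82). LRPPRC was at 85.7, 89.2, 86.3 and 93.3 CPM in parental and at 88.7, 104, 105 and 138 CPM in Rho0 libraries. Rho0 replicate 1 falls inside the parental range and the others above it, and the difference of 0.30 ± 0.12 (SE) missed the threshold (adjusted p = 0.053, edgeR). Without Rho0 replicate 1 it passed (0.36, adjusted p = 0.0091). TACO1 at -0.20 and COA1 at -0.07 were not called; without Rho0 replicate 1, TACO1 was called lower (-0.31, adjusted p = 0.014).

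MT-CO2 is inserted by COX18, held by COX20 and matured with COX16. COX16 was at 9.55, 12, 9.85 and 10.8 CPM in parental and at 7.04, 7.46, 7.29 and 9.04 CPM in Rho0 libraries. The groups do not overlap, with Rho0 replicate 4 nearest to the parental values. Its log2 fold change was -0.45 ± 0.12 (SE; adjusted p = 0.0076, edgeR; -0.06 with library size alone), and it shares 671 exon bases with the read-through gene SYNJ2BP-COX16. COX20 was at 29.7 ± 1.90 CPM in parental and 36.7 ± 4.07 CPM in Rho0 cells (SD, n = 4 for each line), a log2 fold change of 0.31 ± 0.09 (SE; adjusted p = 0.015, edgeR). That call was lost without parental replicate 3 (0.26, adjusted p = 0.051) and after the length and GC correction (0.02). COX20 shares 3502 exon bases with HNRNPU on the opposite strand. COX18 was at 0.00.

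COA5, needed at an early step whose mechanism is little known, showed the largest change of all members. It read 4.50, 3.90, 4.18 and 3.77 CPM in parental replicates 1 to 4 and 8.95, 8.14, 10.4 and 10.7 CPM in Rho0. The lowest Rho0 library lies far above the highest parental one. The mean went from 4.08 ± 0.324 to 9.55 ± 1.22 CPM (SD, n = 4 each), 2.35-fold higher (log2 fold change 1.23 ± 0.12 SE, adjusted p = 1.1e-05, edgeR). It was called in all 20 alternatives, with log2 fold changes from 1.05 to 1.63. UNC50, which starts 64 bases away on the opposite strand, rose as well, with 6.56 ± 0.234 CPM in parental and 12.6 ± 0.795 CPM in Rho0 cells (SD, n = 4) and a log2 fold change of 0.95 (adjusted p = 7.5e-06).

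The paired inner-membrane proteins HIGD1A and HIGD2A, relatives of yeast respiratory supercomplex factors, changed in opposite directions. HIGD1A, a hypoxia-inducible protein that binds complex IV, was at 24.8, 24.9, 24.2 and 28.0 CPM in parental and at 17.7, 19.4, 13.9 and 22.6 CPM in Rho0 libraries. No Rho0 library reaches the parental range, and replicate 4 comes nearest. Its log2 fold change was -0.47 ± 0.13 (SE; adjusted p = 0.012, edgeR; -0.08 with library size alone). HIGD1A shares 337 exon bases with AC006059.2 on the same strand, which went from 0.0688 to 1.46 CPM on average. HIGD2A, which acts on the MT-CO3 module, was at 21.2, 23.5, 23.4 and 21.0 CPM in parental and at 35.5, 31.4, 26.3 and 24.4 CPM in Rho0. All Rho0 values are higher, with replicate 1 the farthest. The log2 fold change was 0.40 ± 0.12 (SE; adjusted p = 0.015, edgeR); it was 0.26 without Rho0 replicate 1 (adjusted p = 0.045) and not called without Rho0 replicate 2 (0.35, adjusted p = 0.057).

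The other assembly factors changed little. CMC2 was at 11.9 ± 0.807 CPM in parental and 9.34 ± 1.13 CPM in Rho0 cells (SD, n = 4 for each line), a log2 fold change of -0.34 ± 0.11 (SE; adjusted p = 0.019, edgeR); the call was lost without parental replicate 3 (-0.31, adjusted p = 0.053), and the value was 0.05 with library size alone. CMC2 shares 457 exon bases with CENPN on the opposite strand, which was lower by 0.60 on the log2 scale. COA7 was at 0.09, PET100 at 0.07 and COA4 at -0.12, none called.

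**Figure D3:**
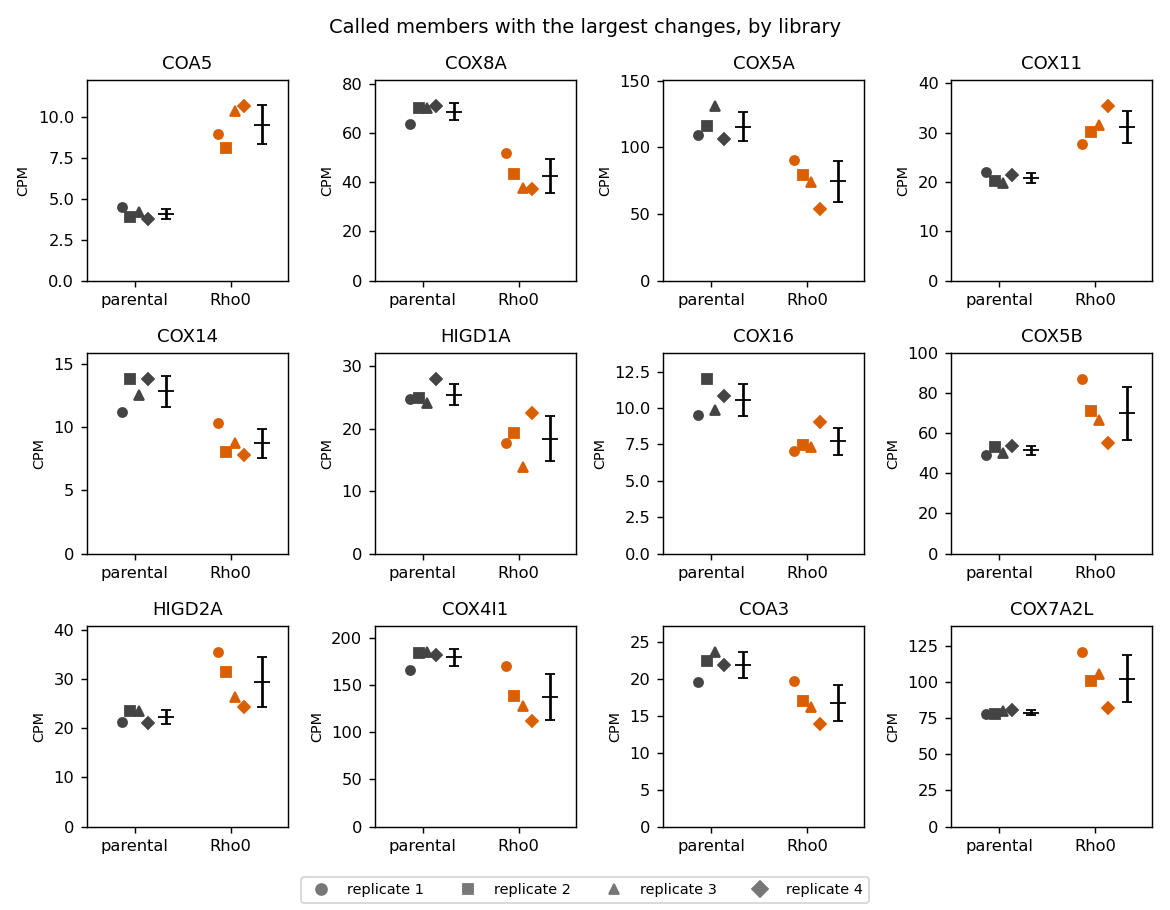
CPM (y axes, from 0) of the 12 called members with the largest changes, in the 4 parental and 4 Rho0 libraries (x axes); symbols mark the replicate and bars give mean ± SD. COA5 rises from 4.08 to 9.55 CPM on average, while COX4I1 and COA3 are the panels in which Rho0 replicate 1 lies within the parental range; the falls of COX14, COX5A, COX16, HIGD1A, COX4I1 and COA3 were not called with library size alone.

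Shared promoters were examined because several members start within 1000 bases of a gene on the opposite strand. There were 10 such pairs: both genes were higher in 2 (COA5 with UNC50, COX11 with STXBP4) and both lower in 1 (COX4I1 with EMC8). They were called in opposite directions in 1, where COA3 fell and CNTD1 rose by 0.44. In 3 pairs the neighbour alone was called: ADPRM beside SCO1 (log2 fold change 1.19), PAAF1 beside COA4 (-0.61) and XAB2 beside PET100 (-0.98). In 2 pairs the member alone was called (HIGD1A with ACKR2, HIGD2A with NOP16), and in 1 (SURF1 with SURF2) neither was. For comparison, 29.0% of all genes tested were higher, 25.4% lower and 54.4% called in either direction. Whether neighbours changed together more often than other genes was not tested. Reads could also be split between members and other genes on the same strand: exons are shared by COX19 and ADAP1 (1186 bases), PET117 and KAT14 (712 bases), COX17 and POPDC2 (383 bases) and HIGD1A and AC006059.2 (337 bases). Of these neighbours ADAP1 was called lower (log2 fold change -1.26). KAT14 (1.05), POPDC2 (1.55) and AC006059.2 (4.31) were called higher. Whether reads moved between the genes of a pair was not tested. The 77 named pseudogene IDs of 15 members held at most 1.26% of the counts of a member and its copies together over all libraries, for COX6C, and at most 1.72% in a single library.

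Other genes of complex IV, its cofactors and its regulators were read from lists of genes that are not members. Of 19 further subunit forms, assembly and insertion genes, 16 were tested. Of those, 1 was higher (6.25%, against 29.0% of all genes) and 5 lower (31.2%, against 25.4%). FDX2, a ferredoxin, fell by 0.72 ± 0.11 (SE, adjusted p = 0.00025, edgeR). OXA1L, the insertase of the inner membrane, fell by 0.63 ± 0.08 (SE, adjusted p = 4.9e-05, edgeR). TMEM177, a partner of COX20, fell by 0.63 ± 0.16 (SE, adjusted p = 0.0058, edgeR). FDX2 and OXA1L were also called lower with library size alone (-0.33 and -0.24), whereas TMEM177 was not (-0.24). TMEM223 (-0.34) and SLIRP (-0.33), a partner of LRPPRC, were the other lower genes, and both turned positive with library size alone (0.04 and 0.06). SMIM20, which acts on new MT-CO1, was the higher one (0.34, adjusted p = 0.023), a call made in 11 of 20 alternatives. Cytochrome c (CYCS, -0.18) and its heme lyase (HCCS, -0.12) were not called in the reported edgeR fit, the DESeq2 Wald test or limma-voom. In the reported fit neither had an unadjusted p under 0.05. CYCS was called in 3 of 20 alternatives, among them the length and GC correction (-0.28, adjusted p = 0.006, edgeR). HCCS was called in 1 of 20, as higher with library size alone (0.27, adjusted p = 0.017, edgeR).

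Of 7 genes of cellular copper handling, 3 were higher (42.9%, against 29.0% of all genes) and 0 lower (against 25.4%) in edgeR. The DESeq2 Wald test gave 2 and 0 and limma-voom 3 and 0. In edgeR 3 had an unadjusted p under 0.05. The copper-exporting ATPase ATP7A rose by 0.67 ± 0.18 (SE) on the log2 scale (adjusted p = 0.0079; 0.36 after the length and GC correction, also called), with 9.90 ± 1.18 CPM in parental and 15.8 ± 3.92 CPM in Rho0 cells (SD, n = 4). ATP7B, its close relative, was low in both lines, 0.138 ± 0.0397 and 0.895 ± 0.291 CPM (SD, n = 4 each), and its parental libraries held 2 to 4 counts each, at the level of 3 counts. Its fitted log2 fold change of 2.62 ± 0.38 (SE; adjusted p = 0.00018) is therefore imprecise, with values from 0.74 to 3.01 over 19 alternatives. ATOX1, the chaperone that feeds both, changed by 0.31 ± 0.12 (SE; adjusted p = 0.04), a call made in 10 of 20 alternatives. The importer SLC31A1 (-0.11) and the mitochondrial carrier SLC25A3 (0.02) were not called in the reported fit. SLC31A1 was called lower after the length and GC correction (-0.25, adjusted p = 0.027, edgeR). Both SLC31A1 (0.29) and SLC25A3 (0.41) were called higher with library size alone.

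Of 10 nuclear regulators of respiratory genes, 9 were tested. Of those, 3 were higher (33.3%, against 29.0% of all genes) and 2 lower (22.2%, against 25.4%). The ETS factor GABP is made of GABPA, which binds DNA, and a GABPB chain. GABPA rose by 0.66 ± 0.20 (SE) on the log2 scale (adjusted p = 0.016, edgeR), with 16.2 ± 2.72 CPM in parental and 25.5 ± 7.61 CPM in Rho0 cells (SD, n = 4), and was at 0.26 after the length and GC correction (adjusted p = 0.019). GABPB2 changed by 0.60 ± 0.11 (SE; adjusted p = 0.00089) and PPRC1, a PGC-1 related coactivator, by -0.46 ± 0.08 (SE; adjusted p = 0.00062; -0.06 and not called with library size alone). SP1 was also higher (0.30, adjusted p = 0.014), and GABPB1 was lower (-0.41, adjusted p = 0.0037; -0.02 and not called with library size alone). NRF1 (-0.10) and YY1 (0.06) were not called, and PPARGC1A was too low to test.

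**Figure D4:**
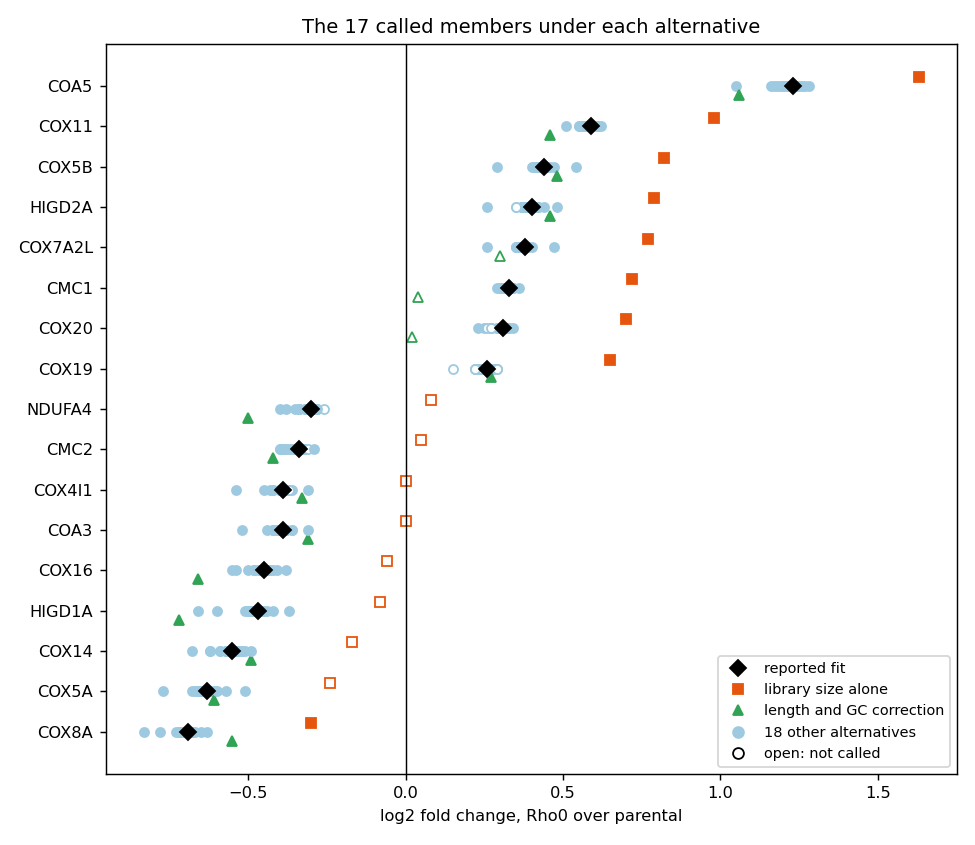
Log2 fold change (x axis, Rho0 over parental) of the 17 called members (y axis) in the reported fit (diamonds) and in 20 alternative analyses, with open symbols where the member was not called. Library size alone moves every member to the right and brings NDUFA4 to 0.08 and CMC2 to 0.05, and the length and GC correction brings CMC1 to 0.04 and COX20 to 0.02.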

How the data were processed

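RNA from 4 parental and 4 Rho0 cultures was sequenced after polyadenylated selection with a strand-specific kit, per the labels' protocols. The authors deposited a table of estimated counts for 38010 Ensembl gene IDs, not normalized, and a table of log2 values for 12885 genes. Tools named in the submitters' processing notes, without roles, are kallisto, edgeR and limma, and the build is GRCh38. The annotation release and the strand setting are not given in the sources used here. Symbols came from a gene name table and GENCODE 29, which together named 34284 IDs.

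Estimated counts were rounded and fitted over the whole table in edgeR 4.0.16, run in R 4.3.3. The fit used TMM factors, filterByExpr (minimum count 10) and the quasi-likelihood F-test, with no covariate. Benjamini-Hochberg adjustment covered 15184 genes, and genes were called at 0.05. The SE is the log2 fold change divided by the square root of F. The biological coefficient of variation was 13.7%. Libraries of a line differed by a chi-square of at least 4.21 per degree of freedom, so none was counted as a duplicate. Bounds from 3 counts cover counting error alone. Length and GC content were known for 93.7% of tested genes.

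Members and lists were chosen with earlier results of these data known. CPM in every library is given for the 12 called members with the largest change and at least 5 CPM in the higher line, and for COX4I1, COX4I2, COX7A1, COX7A2, SCO2, NDUFA4, LRPPRC and HIGD1A. Called genes of the other lists are named by size of change, at most 3 a list. Values of genes outside these rules were chosen after they were seen. Alternatives used DESeq2 1.42.0 and limma 3.58.1 (voom, and trend on the deposited log2 table). The length and GC correction and the joint removal of Rho0 replicates 1 and 4 were chosen after seeing the data.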

Additional observations from a re-analysis of the deposited data

Results flagged for a closer look

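In 5 of the 76 groups of 4 libraries examined, 1 library stood apart by Dixon's criterion (its gap to the nearest library, as a share of the group's range, was above the critical value for 4 values), and chance alone marks about 1 group in 20. COX4I1 was lowest in parental replicate 1 at 166 CPM, against 182 to 185 CPM in the other parental libraries. COX8A was also lowest there, at 64.0 CPM against 70.2 to 71.2 CPM, and COA1 was highest there, at 48.0 CPM against 41.5 to 42.5 CPM. COX6A1 was highest in parental replicate 3, at 118 CPM against 103 to 106 CPM. COA7, an assembly factor, was highest in Rho0 replicate 4, at 25.6 CPM against 20.5 to 20.7 CPM in the other Rho0 libraries, and its log2 fold change was 0.09 with and -0.01 without that library.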

How the results depend on the processing

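All 20 alternatives gave a value for each of the 38 tested members. The count of higher members was 6 to 8 and of lower members 8 to 12 when single libraries were left out, with a median log2 fold change of -0.10 to -0.02. With library size alone 22 were higher (56.5% of all genes were), 1 was lower (10.1% of all genes) and the median was 0.34. After the length and GC correction 5 were higher (29.6% of all genes were). With Rho0 replicates 1 and 4 left out 14 were lower (28.0% of all genes were). Why these counts moved was not tested, apart from the shift of all genes from 0.05 to 0.44 with library size alone.

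Signs turned in small changes. With library size alone these were CMC2 0.05, NDUFA4 0.08, COX7A2 0.11, COX6B1 0.15, PET117 0.17, TACO1 0.19, COX17 0.21, COX10 0.23, COX7B 0.25, COA4 0.27, SURF1 0.30, COA1 0.33, COX7C 0.36 and COX15 0.37. With Rho0 replicates 1 and 4 left out they were COX18 -0.13, COX6C -0.07, PET100 -0.04 and COA7 -0.02. COX18 was at -0.03 in DESeq2 and with DESeq2 size factors, -0.02 without mitochondrially encoded genes and -0.01 in limma-trend. COX6C was at -0.01 in DESeq2, -0.02 with its size factors, 0.00 without mitochondrially encoded genes and -0.13 after the length and GC correction, where SURF1 was at 0.01. COX7C was at 0.00 with a filter of 50 counts in 4 libraries. With single libraries left out the ranges were -0.01 to 0.10 for COA7, -0.08 to 0.04 for COX18, -0.03 to 0.20 for COX6A1, -0.04 to 0.06 for COX6C, -0.09 to 0.02 for COX7C, -0.11 to 0.15 for PET100 and -0.10 to 0.22 for SCO2.

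With a replicate block 8 members were higher (27.8% of all genes were) and 9 lower (25% of all genes), with a median of -0.05. COX19 lost its call, LRPPRC gained one (0.28, adjusted p = 0.037, edgeR) and COX18 was at -0.01. Same-numbered libraries did not deviate together (correlations of -0.135, 0.037, 0.002 and 0.155). With 4 libraries per line this cannot show whether same-numbered cultures were handled together. Depth limits the genes of low count: COX4I2 and COX7A1 could not be tested.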
